A study of Mus musculus with 8 samples.

Results

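The translation efficiency (TE) landscape of control mouse embryonic stem cells was read from 2 libraries of ribosome-protected fragments (RPFs) and 2 input libraries, gene by gene. A gene was taken when its mean over the 2 control input libraries was at least 10 normalised reads and its mean over the 2 control RPF libraries was at least 50, which held for 6142 of the 8125 genes listed. The cells were TC1 embryonic stem cells of genotype Dis3l2 +/-, so the control itself carries 1 disrupted allele of the exoribonuclease gene. They were grown undifferentiated on gelatin without feeders in LIF and serum. Cycloheximide was given before lysis to hold ribosomes in place, and both kinds of library were depleted of ribosomal RNA with the TruSeq Ribo Profile kit. Each kind of control library has 2 replicates, named in the study's methods as biological replicates of cultures. The other libraries of the study (Dis3l2 -/- cells made with CRISPR/Cas9) enter no result here. Which columns are control rests on their names alone: Dis3l2 itself was not analysed here, and the deposited change between genotypes runs, over genes, in the opposite sense to knockout over control by column names, so the genotype of the columns is not settled.

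Ribosome profiling digests the mRNA that no ribosome covers and sequences what each ribosome shielded, so the RPFs of a gene count ribosomes on its coding sequence while the input counts its mRNA. The RPF value over the input value is the TE. As used here it is a relative density of ribosomes, not a number per mRNA, since a longer mRNA gives more input reads. TE is known to be set mainly at initiation, by features of the 5′ UTR such as upstream start codons, by proteins that bind there, and by growth signalling acting on mRNAs of the translation machinery. Embryonic stem cells divide fast, with a short G1 phase, and hold a network of transcription factors around Pou5f1, Nanog and Sox2.

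In the deposited table each library was scaled by a single factor, with no division by gene length. A read was worth 3.94 and 1.94 normalised reads in the RPF libraries and 0.244 and 0.250 in the input libraries. The RPF libraries held 558962 and 1126782 reads over the listed genes, and the input libraries 8585206 and 8382211. The median member had 41 and 81 reads in the RPF libraries and 650 and 635 in the input libraries, so RPF counts limit the precision of each TE. The markers of undifferentiated stem cells were present: each of the 10 markers listed passed both minimums, with Zfp42 at 4056 and 3807 normalised reads in the RPF libraries and 3801 and 4141 in the input libraries. Most markers sought of other cell types were absent from the deposited table. Of those it lists, 1 of 2 fibroblast, 0 of 1 primitive endoderm, 2 of 2 trophoblast and 1 of 3 neural genes passed the minimums. Vim, an intermediate filament gene and the fibroblast marker that passed, was at 733 and 673 in the RPF libraries and 431 and 441 in the input libraries.

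The minimums shape what can be seen. Of the 1983 listed genes left out, 1815 missed the RPF minimum only, 11 missed the input minimum only and 157 missed both. Just inside the RPF minimum stood Rev3l and Ttc17, at means of 50.02 and 50.08 normalised RPF reads. Just outside it stood Purb and Cmtr2, both at 49.99. At the input minimum, Nckap5l and Glis2 were just inside at 10.5 and 10.7, while Gng3 and Laptm5 were just outside at 9.24 and 9.35. A gene with little mRNA entered only with a high TE: the 617 genes with an input under 50 had a median TE of 2.29 and could not be below 1. The median TE was 1.05 in 2992 genes with an input of 50 to 200 and 0.884 in 2533 genes above that.

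TE varied 7.33-fold between the 5th and 95th percentile of genes, from 0.434 to 3.18, around a median of 1.04. The lowest value was 0.155, for Ftl1, and the highest 41.3, for Atp6v0c, a subunit of the proton pump of lysosomes with a mean input of only 17.4 and 93.4% of its coding windows shared with other genes. There were 833 genes (13.6%) with a TE at least 2-fold above the median and 588 (9.57%) at least 2-fold below it. The distribution had an interquartile range of 1.07 on the log2 scale. Differences between genes were reproducible: the log2 TE computed from each RPF library correlated with Pearson's r = 0.874 across the 6142 genes, as a description, since both used the same 2 input libraries and genes are not independent replicates. The 2 RPF libraries correlated with r = 0.948, the 2 input libraries with r = 0.994, and RPF with input libraries with r = 0.799 to 0.817. The RPF values of 96.1% of genes lay within 2-fold of each other.

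To ask which genes stood apart from the median gene, log2(value + 10) was centred on each library's median over the 6142 genes, and RPF was compared with input by limma. Genes above the median gene at an adjusted p under 0.05 numbered 1698 (27.6% of those tested), and genes below it 1389 (22.6%), together 50.3%. Both RPF values lay above both input values, after centring, in 41.4% of genes, and below both in 36.6%. Counts of called members of a gene group are read against these shares. Fold values below are log2 differences of centred RPF minus input with their standard error (SE), which understate the change of genes with low values, and the median of all genes on this scale was 0.04. The p-values measure the spread between 2 libraries of each kind. The same test was run with RPFs per coding length and input per transcript length, hereafter per length, where the median of all genes was -0.09 and, of 6140 genes, 1865 (30.4%) were above and 2207 (35.9%) below.

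**Figure D1:**
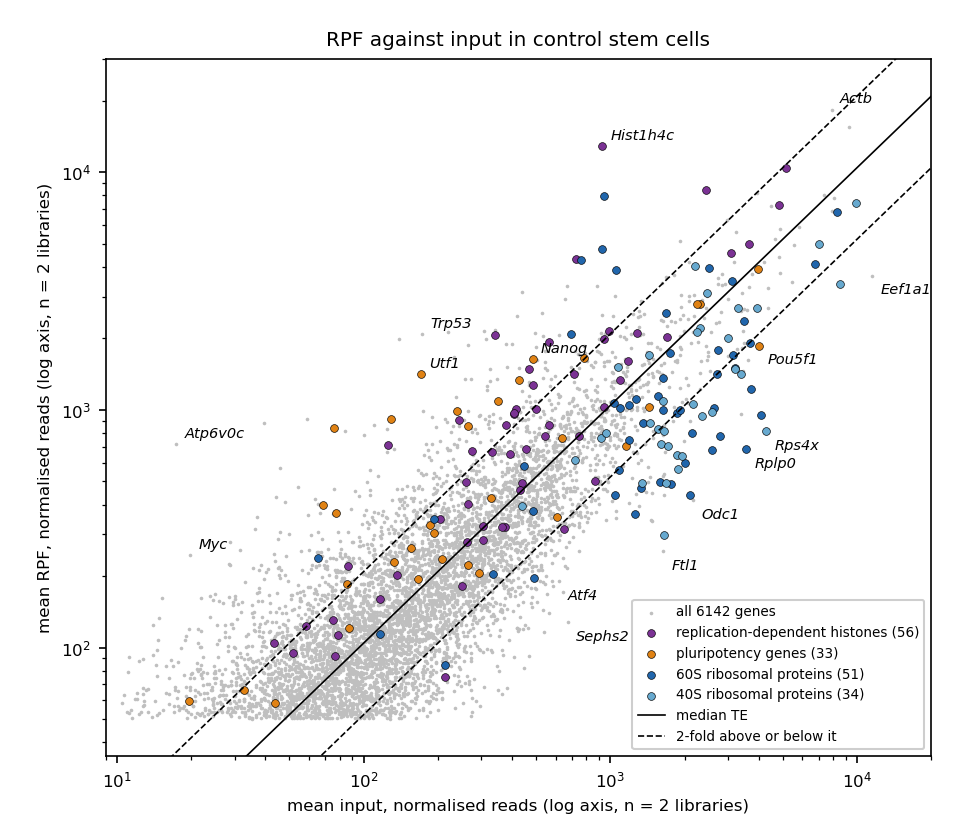
Mean RPF (vertical, log axis) against mean input (horizontal, log axis) of the 6142 genes in normalised reads, 2 libraries of each kind, with 4 gene groups in colour, the median TE as a solid line and 2-fold above or below it as dashed lines. Most ribosomal protein genes lie below the solid line at high input, most histone and pluripotency genes lie above it, and the lower edge of the cloud is the RPF minimum of 50.

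The highest TE among genes with a mean input of at least 100 and a mean RPF of at least 200 belonged to genes of several kinds. Trp53, the tumour suppressor p53, had 2087 and 2094 normalised reads in the RPF libraries and 188 and 159 in the input libraries. The kinds of library were far from overlapping, and the centred log2 difference was 3.52 ± 0.12 (SE, adjusted p = 0.00010, limma). Utf1, a chromatin factor of undifferentiated cells, had 1311 and 1513 in the RPF libraries and 179 and 162 in the input libraries. Mt2, a metallothionein that binds zinc, had 914 and 818 in the RPF libraries and 110.0 and 109.5 in the input libraries, a TE of 7.89. Snrpd3, an Sm protein of spliceosomal particles, reached 3403 and 2845 in the RPF libraries against 401 and 474 in the input libraries. Pcbp1, which binds C-rich RNA, Ywhag, a 14-3-3 protein, and Klf2, a transcription factor, had TEs of 7.18, 6.99 and 7.07. Also among the 12 highest were Hist1h4c, Tomm6, Rpl24 and mt-Cytb. For Hist1h4c, Tomm6 and Rpl24, 64.2%, 100% and 100% of the 28-base windows of the coding sequence also occur in transcripts of other genes, so their reads cannot be assigned with certainty. For Trp53 this share was 36.3%, and for Utf1 and Klf2 it was 0.

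The lowest TE was that of Ftl1, the ferritin light chain that stores iron. It had 272 and 237 normalised reads in the RPF libraries and 1831 and 1443 in the input libraries, a TE of 0.155. Of the 12 lowest genes under the same minimums, 7 encode ribosomal proteins: Rps23, Rps4x, Rplp0, Rpl26, Rpl9, Rpl5 and Rpl37. Odc1, ornithine decarboxylase of polyamine synthesis, had 421 and 413 in the RPF libraries and 2219 and 2107 in the input libraries. Topbp1, a DNA replication checkpoint protein, had 354.4 and 335.5 in the RPF libraries and 1428 and 1511 in the input libraries, and it shared 1.44% of its windows. Tnks2, tankyrase 2, had 532 and 349 in the RPF libraries against 1606 and 1684 in the input libraries, with no shared window. The 12 also held 2610507B11Rik, at a TE of 0.230. Ftl1, Odc1 and the ribosomal protein genes shared from 79.0% (Rplp0) to 100% of their windows. For Rps23 the RPF libraries themselves stood apart, at 146 and 452.

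**Figure D2:**
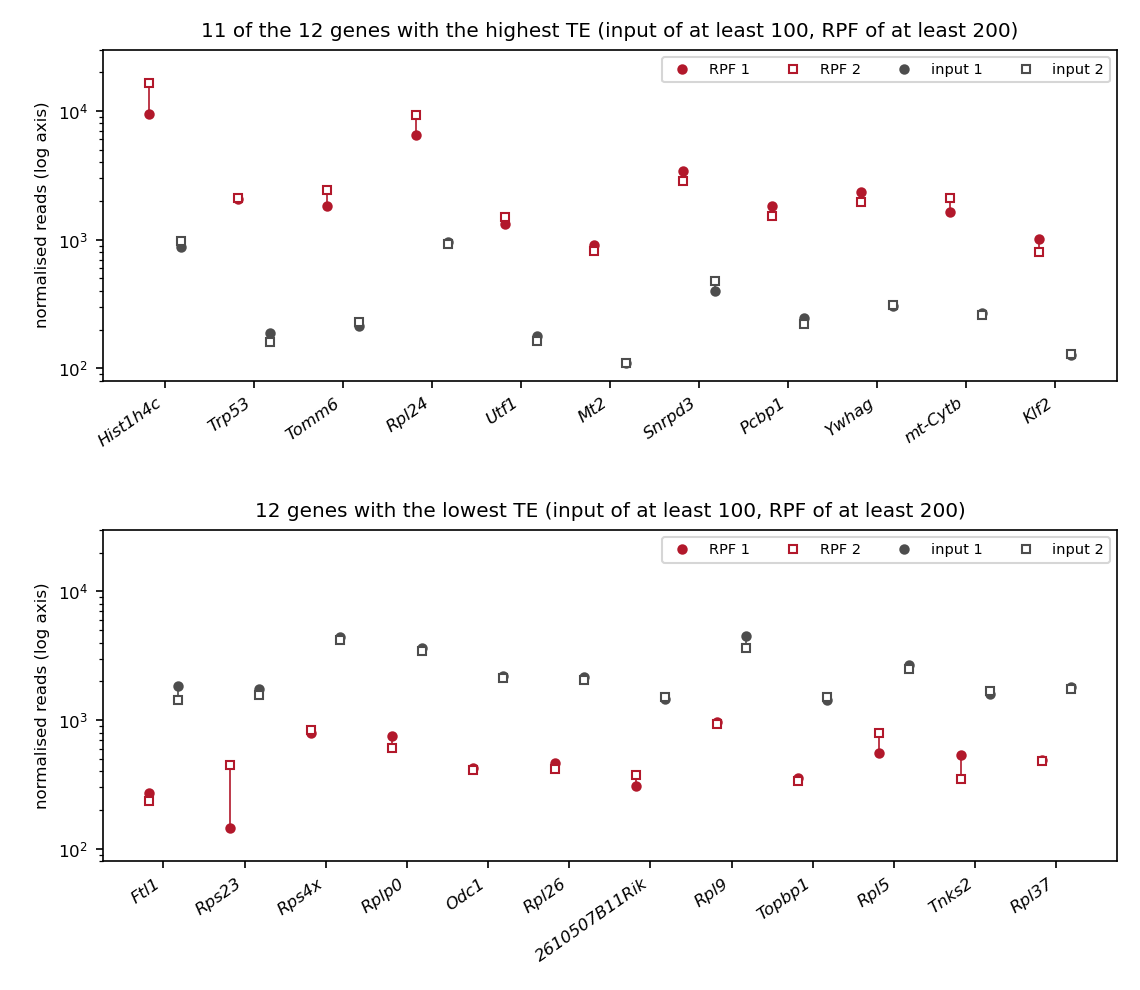
Normalised reads (log axis) of 11 of the 12 genes with the highest TE and the 12 with the lowest among genes with a mean input of at least 100 and a mean RPF of at least 200; RPF libraries stand left (red) and input libraries right (grey), replicate 1 filled and replicate 2 open. The libraries of a kind lie close together beside the gap between the kinds, apart from the RPF values of Rps23 (146 and 452).

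Ribosomal protein mRNAs, which belong to the class with a 5′ terminal oligopyrimidine tract (TOP) whose translation follows growth signalling, had few RPFs for their input. Of 51 genes of the 60S subunit, close paralogs of its proteins included, 31 were below the median gene and 8 above, with a median TE of 0.616. Of 34 genes of the 40S subunit, 22 were below and 3 above, with a median TE of 0.570. The 60S genes took 3.47 and 4.01% of the normalised reads in the RPF libraries and 5.09 and 4.79% in the input libraries. The 40S genes took 2.54 and 2.65% in the RPF libraries and 4.50 and 4.30% in the input libraries. Rps4x had 792 and 838 normalised reads in the RPF libraries and 4392 and 4185 in the input libraries (log2 difference -2.39 ± 0.10, adjusted p = 0.00011, limma). Rplp0, of the ribosomal stalk, had 756 and 609 in the RPF libraries and 3648 and 3455 in the input libraries. The exceptions were large: Rpl24 had 6526 and 9353 in the RPF libraries and 953 and 933 in the input libraries, and Rpl6 had 3162 and 5366 against 805 and 723. Rps21 and Rps26 had TEs of 1.83 and 1.41. The median ribosomal protein gene shared 97.6% (60S) and 96.1% (40S) of its windows with other transcripts, and the part of this in the values was not tested. Under 10% shared windows was met by 0 genes of the 60S and 2 of the 40S subunit, both below the median gene.

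Other translation factors were mixed. Of 40 initiation factors tested, 15 were above and 9 below (10 and 16 per length), with a median log2 difference of 0.09. Eif4a3, a helicase of the exon junction complex, had 2103 and 2054 normalised reads in the RPF libraries and 964 and 943 in the input libraries. Its paralog Eif4a2, a helicase of initiation, had 1370 and 1550 in the RPF libraries and 3429 and 3471 in the input libraries. The 2 paralogs lay at log2 differences of 1.11 ± 0.09 and -1.24 ± 0.10 (adjusted p = 0.00032 and 0.00033, limma). They were named as members of the 2 ends of this list, so that they differ in sign follows from the choice. Eif4a3 shared 54.3% and Eif4a2 40.4% of their windows with other genes. Eif4h was above (TE 2.22) and Eif1ad below (TE 0.370). Of 10 elongation and termination factors, 2 were above and 4 below. Eif5a, which relieves ribosomes at proline stretches, had 3623 and 3000 in the RPF libraries and 931 and 842 in the input libraries. Eef1a1, which brings aminoacyl-tRNA to the ribosome, had 3588 and 3749 in the RPF libraries and 12383 and 10631 in the input libraries, a TE of 0.319. It shared 89.4% of its windows. Etf1, the release factor, had a TE of 0.527 and Eef1d one of 1.99. Of 15 TOP mRNAs outside the ribosome, 4 were above and 6 below, with Eef1a1 and Eif4b (TE 0.517) lowest and Eef1d and Eif3f (TE 1.79) highest. The 2 of these 15 with under 10% shared windows were both above.

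mRNAs known for regulatory reading frames upstream of the main start were mostly low. Of 8 tested, 5 were below the median gene and 2 above, with a median log2 difference of -0.80 (-0.85 per length). Atf4, the transcription factor of the integrated stress response, had 232 and 147 normalised reads in the RPF libraries and 591 and 653 in the input libraries (log2 difference -1.70 ± 0.20, adjusted p = 0.00098, limma). Ppp1r15b, a subunit of the phosphatase acting on eIF2, had 43.3 and 98.9 in the RPF libraries and 255 and 261 in the input libraries. The 2 above were Cebpb (TE 2.47) and Slc35a4 (TE 2.65), whose inputs averaged under 50, where only a high TE passes the minimums. In the polyamine pathway 4 of 7 genes were below and 1 above. Odc1 was lowest, and Oaz1, the antizyme that sends ornithine decarboxylase to the proteasome, had 130 and 159 in the RPF libraries and 561 and 510 in the input libraries. Oaz1 shared 91.6% of its windows. Srm, spermidine synthase, was the gene above, at a TE of 1.26, but its log2 difference was -0.17 per length (adjusted p = 0.19, limma).

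The start codons of Odc1 and Atf4 are shown with the upstream ATGs of their annotated 5′ UTRs, since these genes had low TEs, and with those of Trp53 and Utf1, which had high TEs and no upstream ATG. Each window runs 5′ to 3′ from GENCODE M21 transcripts (GRCm38, the assembly of mm10), with the ATG in capitals.
Odc1 upstream ATG 1 (chr12:17544911-17544930, + strand): gtgcgtctccATGacgacgt
Odc1 upstream ATG 2 (chr12:17545125-17545144, + strand): cggcgcctccATGggtcagg
Odc1 main start (chr12:17547289-17547308, + strand): atcgagaaccATGagcagct
Atf4 upstream ATG 1 (chr15:80255293-80255312, + strand): cttttctctcATGgggcctt
Atf4 upstream ATG 2 (chr15:80255572-80255591, + strand): tgcggccaccATGgcgtatt
Atf4 upstream ATG 3 (chr15:80255671-80256211, + strand, across an intron): ggcctaagccATGgcgctct
Atf4 main start (chr15:80256289-80256308, + strand): gccccacaacATGaccgaga
Trp53 main start (chr11:69580506-69586900, + strand, across an intron): cgaagactggATGactgcca
Utf1 main start (chr7:139943864-139943883, + strand): tggctcagggATGctgcttc
The 2 upstream frames of Odc1 held 8 and 10 codons and ended before the main start. The upstream frames of Atf4 held 36, 3 and 59 codons, and the third of them began 97 bases before the main start and overlapped the main frame. In this annotation 3113 of 5915 members with a complete coding sequence and a 5′ UTR of at least 20 bases had no upstream ATG.

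Iron-related mRNAs spread widely. Iron-regulatory proteins bind a stem-loop, the iron-responsive element, near the 5′ end of ferritin mRNAs and block initiation when iron is scarce. In Tfrc, the transferrin receptor, and Slc11a2, an iron transporter, the elements lie in the 3′ UTR, where in Tfrc they act on mRNA stability. Of 6 genes with either kind tested, 3 were below the median gene (Ftl1, Fth1 and Tfrc), 1 was above (Epas1) and 2 were not called. Fth1, the ferritin heavy chain, had 370 and 355 normalised reads in the RPF libraries and 702 and 778 in the input libraries (log2 difference -1.01 ± 0.11, adjusted p = 0.00075, limma). Ftl1, whose values are given above, was the lower of the ferritin genes. Epas1, the hypoxia factor HIF-2 alpha, had 106 and 89.2 in the RPF libraries but only 15.4 and 13.8 in the input libraries. Slc11a2 had 94.5 and 67.9 in the RPF libraries and 82.5 and 66.0 in the input libraries, which overlap.
Matches to the letters CNNNNNCAGTGN in the 5′ UTRs, sought on the transcript strand only, are printed in capitals with 9 bases on each side. They hold part of the stem as well as the loop.
Ftl1 (chr7:45459781-45459810, - strand, 5′ UTR): tgtgtcttgCTTCAACAGTGTttgaacgga
Fth1 (chr19:9982729-9982758, + strand, 5′ UTR): ggtttcctgCTTCAACAGTGCttgaacgga
Epas1 (chr17:86753765-86753794, + strand, 5′ UTR): ccgtacaatCCTCGGCAGTGTcctgagact
The letters alone were common: 446 of the 5917 members with a 5′ UTR of at least 20 bases held them, whether or not the coding sequence was complete (7.54%), and 140 of 4341 held them within the first 100 bases of the 5′ UTR (3.23%). In the annotated transcript used for Fth1 the letters began at base 664 of a 5′ UTR of 795 bases, outside that window. The median TE was 1.06 in genes holding the letters and 1.04 in the others.

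Selenoprotein mRNAs are read through an in-frame TGA, at which selenocysteine is inserted with the help of an element in the 3′ UTR. All 10 selenoprotein genes tested held such a codon in the annotated frame, out of 12 genes among 6122 complete coding sequences (0.196%). The other 2 were mt-Co1 and mt-Nd6, where TGA encodes tryptophan in the mitochondrial code. Of the 10 selenoproteins 4 were below the median gene and 3 above, with a median TE of 0.787 and a range from 0.190 to 2.37. Sephs2, selenophosphate synthetase, had 114 and 142 normalised reads in the RPF libraries and 655 and 689 in the input libraries. Selenoh had 154 and 211 in the RPF libraries and 565 and 608 in the input libraries. Selenoi, an enzyme of phosphatidylethanolamine synthesis, had 193 and 126 in the RPF libraries and 71.5 and 63.0 in the input libraries, the reverse order. Msrb1, a methionine sulfoxide reductase, had 55.1 and 71.8 in the RPF libraries and 28.8 and 25.01 in the input libraries.
The codons of the 2 lowest and the 2 highest are shown in capitals within the coding sequence.
Sephs2 (chr7:127273719-127273745, - strand): ggcatgaagggcTGAggctgcaaggtc
Selenoh (chr2:84670369-84670487, - strand, across an intron): cattgtacgagcTGAcgcgtgtacggc
Msrb1 (chr17:24740146-24740172, + strand): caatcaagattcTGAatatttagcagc
Selenoi (chr5:30266952-30266978, + strand): ccaaactcagatTGActaggaatggaa
The codon stood 186 and 111 bases after the start of the ATG in Sephs2 and Selenoh, and 282 and 1161 bases after it in Msrb1 and Selenoi.

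Pluripotency genes stood high. Of 33 tested, 16 were above the median gene and 5 below, with a median TE of 1.69 and a median log2 difference of 0.71 (0.72 per length). The group was less high with an input of at least 100 and no RPF minimum, a setting chosen after seeing the data. There 12 of 25 were above and 5 below, with a median of 0.38, against -0.13 for all genes. The core factors did not stand together. Nanog had 1776 and 1497 normalised reads in the RPF libraries and 496 and 472 in the input libraries (log2 difference 1.73 ± 0.11, adjusted p = 0.00019, limma). Sox2 had 807 and 719.5 in the RPF libraries and 617 and 660 in the input libraries, a log2 difference of 0.25 ± 0.11 that did not pass (adjusted p = 0.097). Pou5f1 had 1808 and 1922 in the RPF libraries and 3972 and 4061 in the input libraries (-1.11 ± 0.09, adjusted p = 0.00032). Nanog and Pou5f1, partners in the same network, thus lay on opposite sides of the median gene without overlap between the kinds of library. The highest of the group were Klf5, at 949 and 723 in the RPF libraries and 83.7 and 67.8 in the input libraries, and Utf1. Trim71, an RNA-binding ubiquitin ligase, was also below, at 417 and 291 in the RPF libraries and 635 and 585 in the input libraries.

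Short-lived regulators stood as high. Of 29 immediate early and related genes tested, 18 were above and 2 below, with a median TE of 1.78, and 14 of the 43 listed missed the minimums. Myc, the growth-promoting transcription factor, had 248 and 242 normalised reads in the RPF libraries and 20.5 and 19.3 in the input libraries, a TE of 12.3. The RPF libraries held 63 and 125 reads of Myc. Zfp36l1, which binds AU-rich elements to destabilise mRNAs, had 154 and 112 in the RPF libraries and 17.3 and 12.3 in the input libraries. Both have an input under 50, where a TE under 1 cannot be seen. Junb, at 35.4 and 71.8 in the RPF libraries and 82.7 and 81.8 in the input libraries, did not pass (adjusted p = 0.14). Among 23 cyclins and cyclin-dependent kinases 6 were above and 5 below. The 2 highest of this list, named for that reason, were the D-type cyclins Ccnd3 and Ccnd1, which drive G1. Ccnd3 was at 681 and 617 in the RPF libraries and 189 and 163 in the input libraries, and Ccnd1 at 398 and 411 against 180.3 and 190.3. Ccng1, a target of p53, was at the other end, with 94.5 and 40.7 in the RPF libraries and 371 and 395 in the input libraries.

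Histone genes had many RPFs for their input. Of 56 replication-dependent histone genes tested, 34 were above the median gene and 3 below, with a median TE of 1.65. They took 3.82 and 4.70% of the normalised reads in the RPF libraries and 2.17 and 2.13% in the input libraries. Hist1h4c, a gene of histone H4, had 9472 and 16344 in the RPF libraries and 882 and 969 in the input libraries. Hist1h3b had 1646 and 2486 in the RPF libraries and 344 and 338 in the input libraries. Hist1h2ag was the lowest, at 82.7 and 67.9 in the RPF libraries and 236 and 191 in the input libraries. The median gene of the group shared 82.3% of its windows with others; the 4 with under 10% shared were all above. Per length the group counted 23 above and 11 below. The replacement histones, made outside S phase, showed 8 of 10 above and 1 below, with H2afx, marked at DNA breaks, at 2643 and 3221 in the RPF libraries and 666 and 650 in the input libraries. H2afj was the one below in that group (TE 0.492), but its log2 difference was 0.13 per length.

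The mitochondrially encoded genes spread widely in TE. The 7 such genes tested, read by mitochondrial ribosomes, ranged from a TE of 0.283 to 7.03. They counted 3 above and 2 below the median gene, but 3 and 4 per length, where their median log2 difference was -1.01. Whether TEs of mitochondrial and cytosolic ribosomes can be compared was not tested. mt-Cytb, of complex III, had 1646 and 2090 normalised reads in the RPF libraries and 270 and 261 in the input libraries. mt-Nd6, of complex I, had 394 and 446 in the RPF libraries and 56.9 and 70.8 in the input libraries. mt-Nd5, of the same complex, had 977 and 944 in the RPF libraries and 3522 and 3268 in the input libraries. mt-Nd2 was also below, at 445 and 405 in the RPF libraries and 1010 and 1059 in the input libraries. Genes lie close together on both strands of this genome, and whether reads were counted by strand is not given in the sources used here. Of 75 nuclear-encoded subunits of oxidative phosphorylation 19 were above and 9 below (27 and 25 per length), with Uqcrq (TE 3.16) and Atp5j (TE 3.11) highest. Of 72 mitochondrial ribosomal proteins 17 were above and 9 below (27 and 16 per length), within a range of TE from 0.463 to 2.53. In mitochondrial import and carriers, 5 of 35 were above and 7 below, and the ends were far apart, with Tomm6 at 9.66 and Timm17a at 0.273. Timm17a and Tomm20 (TE 0.300) changed sign per length, to log2 differences of 0.75 and 0.68.

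Most groups of the secretory route had more genes above than below the median gene as counted. This turned per length for secreted proteins, surface receptors and ER chaperones. For TMEM proteins it turned with an input of at least 100 and no RPF minimum. Without either minimum, TMEM proteins counted 15 above and 15 below of 79. Secreted and matrix proteins counted 12 above and 1 below of 28, and 13 of 41 listed missed the minimums. Hspg2, the basement membrane proteoglycan perlecan, had 1678 and 1501 normalised reads in the RPF libraries and 604 and 485 in the input libraries. Spp1, osteopontin, had 1394 and 1544 in the RPF libraries and 527 and 579 in the input libraries. Tfpi, a clotting inhibitor, was the one below (TE 0.605). Per length this group counted 7 above and 11 below. Solute carriers outside mitochondria counted 28 above and 8 below of 57 (27 and 11 per length), with Slc2a1, the glucose transporter GLUT1, at 2083 and 2065 in the RPF libraries and 656 and 579 in the input libraries. Slc30a5, a zinc transporter, was lowest, with 82.7 and 54.3 in the RPF libraries and 309 and 307 in the input libraries. Surface receptors counted 16 above and 9 below of 57 (16 and 19 per length), TMEM proteins 13 and 11 of 43 (36 of 79 listed missed the minimums), and the components of ER targeting and N-glycosylation 7 and 4 of 29. With an input of at least 100 and no RPF minimum, a setting chosen after seeing the data, TMEM proteins counted 2 above and 13 below of 25, surface receptors 11 and 11 of 43, and solute carriers 13 and 6 of 31. Ost4, a small subunit of the oligosaccharyltransferase, had 752 and 873 in the RPF libraries and 86.6 and 81.0 in the input libraries. Sec61g, of the translocon, had 114 and 128 in the RPF libraries and 479 and 355 in the input libraries, but its log2 difference was 0.33 per length. It shared 100% of its windows. Of 17 ER chaperones 4 were above, Pdia3 (TE 1.73) and Hyou1 (TE 1.47) highest, and 1 below, Dnajb11 (TE 0.712), and the group counted 3 above and 5 below per length.

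Zinc-finger genes named Zfp were more often below than above the median gene. Of 77 tested, 28 were below and 13 above (34 and 14 per length), with a median TE of 0.870, and 75 of the 152 listed missed the minimums. Zfp639 had 59.1 and 64.0 normalised reads in the RPF libraries and 209 and 206 in the input libraries. Chromatin and DNA methylation regulators counted 14 above and 14 below of 64 (7 and 35 per length), with Arid1a, a subunit of BAF remodelling complexes, at 945 and 861 in the RPF libraries and 288 and 222 in the input libraries. Smarca5, the ISWI motor protein, was at 606 and 591 in the RPF libraries and 1319 and 1272 in the input libraries. It shared 80.6% of its windows. hnRNP and SR proteins counted 12 above and 6 below of 31. Srsf2 was at 1571 and 2250 in the RPF libraries and 577 and 559 in the input libraries. Srsf5 was at 421 and 411 against 883 and 846, with 73.8% of its windows shared. The core spliceosome counted 17 above and 11 below of 53. Nucleolar proteins counted 5 above and 4 below of 18, with Gar1 (TE 4.94) and Nolc1 (TE 2.30) at the top and Nop58 (TE 0.513) and Dkc1 (TE 0.549) at the bottom, although Gar1 and Dkc1 are partners in the same particles. The medians of the spliceosome and nucleolar groups changed sign per length.

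Glycolytic enzymes were above the median gene in 10 of 16 cases and below in 0 (5 and 2 per length). Eno1, enolase, had 3607 and 3621 normalised reads in the RPF libraries and 1780 and 1576 in the input libraries, and Hk1, hexokinase, had 406 and 355 against 175 and 185. Eno1 shared 90.5% of its windows and Hk1 0%, and the median of the group was 53.65%. Gapdh had 1166 and 1829 in the RPF libraries and 832 and 656 in the input libraries, with 100% of its windows shared, and its call was lost per length. Actb, a common reference gene, had 18813 and 17818 in the RPF libraries and 8449 and 7357 in the input libraries (log2 difference 1.21 ± 0.10, adjusted p = 0.00031, limma). It shared 49.2% of its windows. Tubulins counted 5 above and 0 below of 12 (3 and 3 per length), with Tubg1, of the microtubule nucleation ring, highest (TE 3.01) and Tuba1a lowest (TE 0.933). Cytosolic aminoacyl-tRNA synthetases counted 6 above and 2 below of 20, but 1 and 14 per length. Mitochondrial synthetases counted 1 above and 4 below of 11 (0 and 8 per length). Proteasome subunits counted 7 above and 10 below of 36 (2 and 21 per length), and the CCT chaperonin 0 and 3 of 7 (0 and 7 per length).

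**Figure D3:**
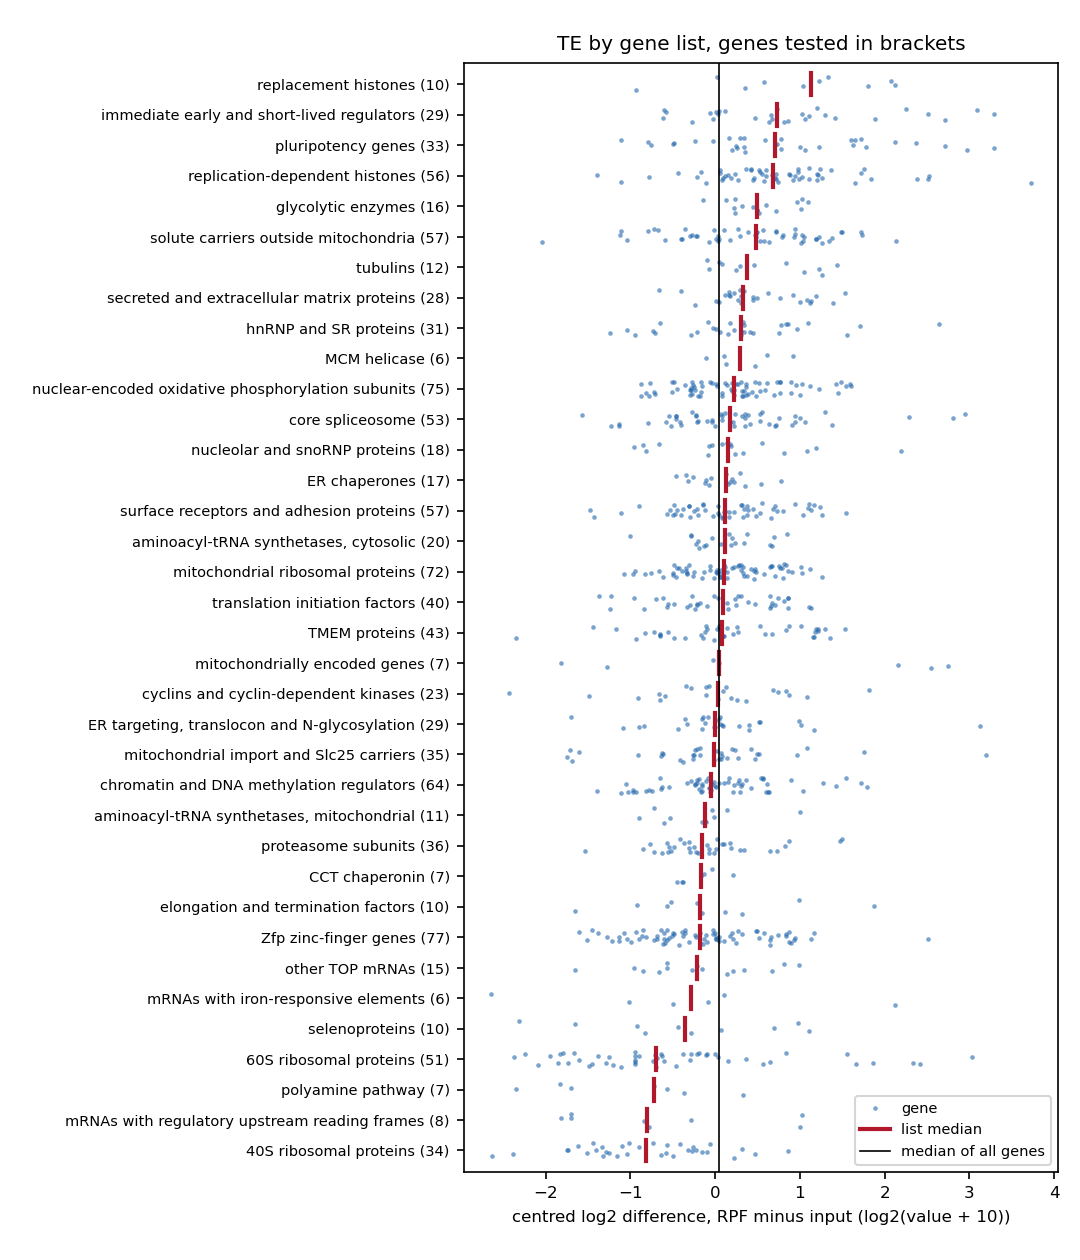
Centred log2 difference of RPF minus input (horizontal) for each tested gene of 36 gene groups (rows, number of genes tested in brackets); points are genes, red bars group medians and the black line the median of all genes (0.04). Replacement histones, short-lived regulators, pluripotency genes and replication-dependent histones have the highest medians, and genes with regulatory upstream frames, ribosomal proteins and the polyamine pathway the lowest, while most groups overlap widely.

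RPFs per residue of the protein compare the output of different genes, because a longer frame holds more ribosomes at the same output. In the CCT chaperonin, a folding machine with 1 copy of each subunit per ring, the RPF value per residue ran from 4.73 (Tcp1) to 6.22 (Cct3) normalised reads over the 7 subunits tested of 8, a range of 1.31-fold. The input per kb of annotated transcript ran over 1.17-fold. Across all genes the standard deviation of log2 RPF per residue was 1.77, against 0.15 in this complex. In the proteasome core beta ring, the means of the 7 subunits ran from 2.88 (Psmb7) to 4.01 (Psmb2) per residue, a range of 1.39-fold. Single libraries were less even, from 2.73 (Psmb5) to 4.47 (Psmb2) in RPF replicate 1 and from 2.86 (Psmb7) to 4.39 (Psmb5) in replicate 2. The input per kb of these subunits ran over 3.56-fold and their TE over 4.10-fold. Psmb2 had 898 and 716 normalised reads in the RPF libraries and 286 and 266 in the input libraries, a TE of 2.92. Psmb4, of the same ring, had 1044 and 952 in the RPF libraries against 1279.5 and 1290.0 in the input libraries, a TE of 0.777. Psmb2, Psmb5 and Psmb3 had the lowest inputs per kb and the highest TEs of the ring, and TE itself holds the input value. This is a description over 7 genes of which Psmb3 and Psmb5 shared 85.5% and 86.7% of their windows.

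Other complexes were less even. The 7 alpha subunits of the proteasome core ran over 5.25-fold in RPF per residue, from 0.862 (Psma3) to 4.52 (Psma6), and Psma3 and Psma5, the lowest of them, shared 92.4% and 90.4% of their windows. The 6 ATPases of the proteasome base ran over 2.94-fold, with Psmc1 lowest at 0.794 and 53.2% of its windows shared. The MCM helicase, a ring with 1 copy of each of 6 subunits, ran over 3.29-fold, from 1.26 (Mcm4) to 4.13 (Mcm5). Ribosomal proteins, needed at 1 copy per ribosome with few exceptions, ran over 379-fold in the 60S and 23.2-fold in the 40S subunit, where shared windows are the rule. By RPF per residue the top genes of all were Rpl41 at 158.5, Hist1h4c at 125 and Hist2h2bb at 57.8, all with over 60% shared windows, followed by Rpl24 at 50.6 and Actb at 48.8. Hist1h1a, a linker histone, reached 48.7 with 0.813% shared.

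**Figure D4:**
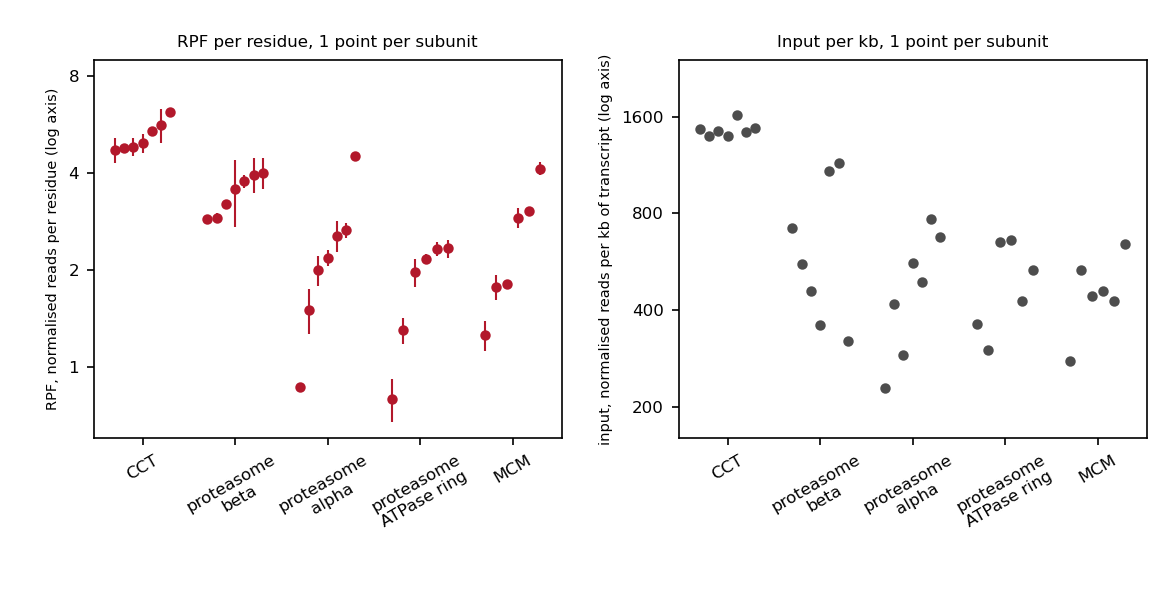
RPF per residue (left, log axis, points are means and lines join the 2 RPF libraries) and mean input per kb of annotated transcript (right, log axis) of the subunits of 5 complexes, 1 point per subunit, in the same order in both panels. The CCT subunits lie close together in both panels. The means of the beta subunits of the proteasome lie close together on the left (2.88 to 4.01) but not on the right.

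Sequence features followed TE to different degrees, as descriptions across genes that are not independent. The clearest was the GC content at codon position 3: the median TE was 0.761 in the lowest quintile of genes and 1.40 in the highest. Genes above the median gene made up 10.2% of the lowest quintile and 44.6% of the highest. Spearman's rho with TE was 0.372 over 6122 genes and 0.321 and 0.396 with each RPF library alone. The relation lay more with the input (rho -0.261) than with the RPF value (rho -0.0585). Genes with an upstream ATG had lower TE, with medians of 1.12, 0.992, 0.919 and 0.931 for none, 1, 2 and 3 or more. The order held within classes of 5′ UTR length: for at least 1 upstream ATG against none, the medians were 0.901 and 1.09 under 100 bases, 0.930 and 1.13 from 100 up to 250, and 0.991 and 1.21 at 250 or more. TE as counted, not per length, declined with coding length, with a median of 1.19 in the shortest quintile and 0.907 in the longest (rho = -0.181).

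Genes with an early hydrophobic stretch stood slightly higher. A stretch of 19 residues with a mean hydropathy of at least 1.6 within the first 40 residues, as in many signal peptides, went with a median TE of 1.18 in 438 genes, against 1.03 in 5684 others, and 35.2% of these genes were above the median gene against 27.1% of the others. Their median input was 106 normalised reads, against 163 in the others, and its part in the difference was not tested. Such a stretch anywhere in the protein gave 1.04 against 1.05, and a stretch later in the protein only gave 0.993. Other features differed less. The base 3 before the start codon gave medians of 1.06 for A, 1.05 for G, 0.994 for C and 0.948 for T. A pyrimidine tract at the annotated start of the transcript (C, then at least 4 of C or T) gave 1.04 in 643 genes, against 1.05 in 5272 without, and annotated starts are often not those used in a given cell. The length of the 5′ UTR and of the 3′ UTR had rho of -0.0351 and -0.00884 with TE. All features were set against TE as counted, and none against TE per length. A longer mRNA gives more input reads, so relations with coding or UTR length cannot be told apart from the counting.

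**Figure D5:**
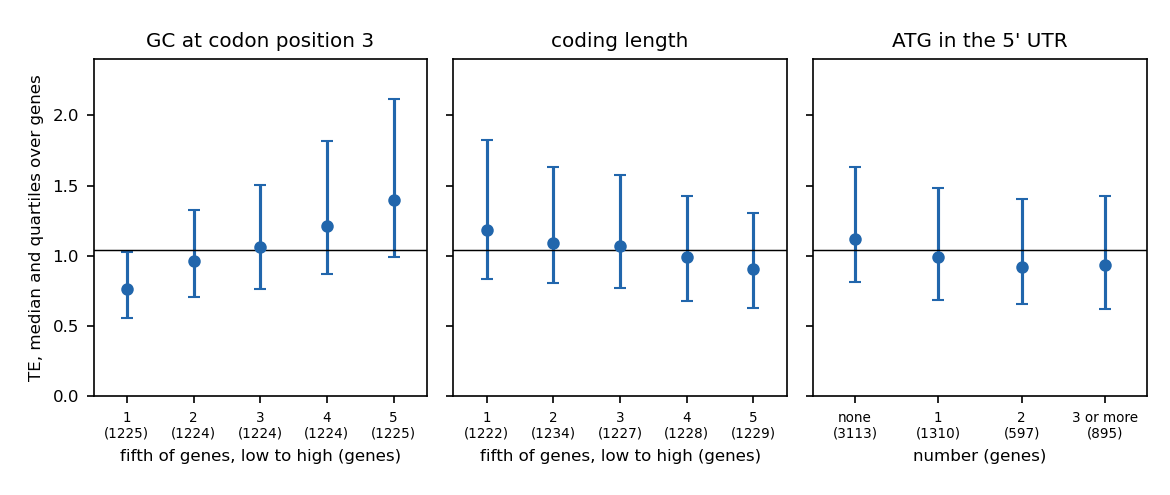
Median TE (points) with quartiles over genes (bars) by quintile of GC content at codon position 3, by quintile of coding length and by number of ATGs in the 5′ UTR, number of genes in brackets; the line is the median TE of all genes (1.04). Medians run upward with GC content, 0.761 to 1.40, and downward with coding length, while the quartiles of neighbouring classes overlap.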

How the data were processed

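The control RPF and input libraries of undifferentiated stem cells (2 of each) were analysed. The authors trimmed and filtered reads, discarded rRNA and tRNA, and used Bowtie against canonical known genes of mm10 with up to 1 mismatch. Neither the Bowtie version nor the region used to count input reads is given in the sources used here. The deposited signal values, named RPKM by the authors, are reads divided by 1 factor per library: all were whole multiples of a step, within 0.02 read, in each of the 4 libraries (100% of values). A deposited log2 change between genotypes was used for its sign only. Reads are not independent molecules, so depth covers counting error only.

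TE was mean RPF over mean input. For tests, log2(value + 10) was centred on each library's median over members and RPF compared with input (limma 3.58.1, R 4.3.3, mean trend, two-sided, Benjamini-Hochberg over 6142 genes). Alternatives were edgeR 4.0.16 and DESeq2 1.42.0 on recovered reads, other pseudocounts, filters and scales, and leaving out each library. The fit was tested on simulated data. Genes were named by rule: per direction the 12 most extreme called genes, the 2 highest and 2 lowest of each of 41 lists, and 9 marker or reference genes; others were chosen after their values were seen. A few items covered by this rule or by a list are not reported here. The members and lists were chosen with earlier results of these data known. Features came from 1 GENCODE M21 transcript per gene (6140 of 6142 members), and shared windows are 28-base windows of the coding sequence found in other genes' transcripts. Of the listed symbols, 14 altered to dates were restored by gene identifier.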

Additional observations from a re-analysis of the deposited data

How the results depend on the processing

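The counts of genes above and below the median gene were 1698 and 1389. They were 1704 and 1387 with a pseudocount of 1, 1692 and 1399 with 30, 1877 and 1649 of 8125 genes with no filter, 1703 and 1381 without centring, 1752 and 1761 by edgeR and 1438 and 1303 by DESeq2. Whether the replicate numbers pair the libraries cannot be told from the values. The differences between RPF replicates and between input replicates correlated with r = 0.0202 over genes. This cannot decide it, because RPF counts are low and the input libraries nearly alike. With the replicate number as a block the counts were 1793 and 1508. With the stricter filter (input of at least 100, RPF of at least 200) they were 823 and 620 of 2451 genes, fewer because fewer were tested, and with an input of at least 100 and no RPF filter, chosen after seeing the data, 997 and 1406 of 4339, so that genes below outnumbered those above. Per length 2207 were below. Leaving out 1 library gave 957 to 2439 above and 731 to 2149 below, the lowest without input replicate 2 and the highest without RPF replicate 2. In these fits 1 kind has a single library, which is assumed to vary like the other kind, so their p-values rest on the spread of the kind that keeps 2. No gene called turned to the opposite call in any of these settings except 87 per length. The 833 genes at least 2-fold above became 497 with a pseudocount of 30, 241 with the stricter filter, 1337 per length and 455 with an input of at least 100 and no RPF filter. The 588 at least 2-fold below became 381, 951 with no filter, 203 with the stricter filter and 1002 per length. The interquartile range of log2 TE of 1.07 was 0.87 with a pseudocount of 30, 1.15 with no filter, 0.94 with the stricter filter, 1.56 per length, 1.03 with an input of at least 100 and no RPF filter, 1.06 with under 10% shared windows (also chosen after seeing the data), and 1.05 to 1.12 without 1 library.

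Of 162 genes named by the rule, 126 stayed as they were per length, called or not, 17 lost a call and 9 gained one. The other 10 changed sign, whether called or not. They were Cct3 (-0.58), Ears2 (-0.48), H2afj (0.13), Mcm4 (-0.48), Psma2 (0.11), Sec61g (0.33), Srm (-0.17), Timm17a (0.75), Tomm20 (0.68) and Vars (-0.23). Only Tomm20 among them was called both times, in opposite directions. Without input replicate 1, 15 of the 162 genes lost their call, and without input replicate 2, 18 did. Both settings lost Cct7, Cebpb, Dnajb11, Dusp12, H2afj, Kars, Krt8, Msrb1, Rps26, Slc35a4, Srm, Tfpi, Tspan15 and Zfp687; Cebpb was then at 0.86 and 1.14 (adjusted p = 0.198 and 0.0957, limma) and Tfpi at -0.72 and -0.61 (adjusted p = 0.168 and 0.283). The Zfp genes, 13 above and 28 below, counted 4 and 12 without input replicate 1 and 3 and 15 without input replicate 2. Leaving out 1 library, Pgam1 ran from -0.43 to 0.68 and Tubb3 from -0.44 to 0.54, both below 0 without RPF replicate 2. Group medians over 0.1 in size that changed sign per length were those of ER chaperones (-0.13), the MCM helicase (-0.24), cytosolic aminoacyl-tRNA synthetases (-0.64), the core spliceosome (-0.04), nucleolar proteins (-0.31) and surface receptors (-0.05). With under 10% shared windows the medians of elongation factors (0.12), iron-responsive mRNAs (0.10) and other TOP mRNAs (0.74) did so. RPF depth, 41 and 81 reads for the median gene, limits the precision of every TE.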
